A study of Mus musculus with 12 samples.

Results

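The insulin and IGF axis was described in fasting mouse liver through 14 array probes for 11 genes, out of 20280 probes on the array. A probe was a member when the scanner files named it Igf1, Igf2, Igf1r, Igf2r, Igfals, Igfbp1 to Igfbp7, Insr, Irs1 to Irs4, Ghr, Socs1 to Socs3 or Cish. Of these 22 genes, Igf2, Igf1r and Irs1 had 2 probes each, and Ghr, Igf2r, Igfbp2, Igfbp3, Igfbp4, Igfbp5, Irs3 and Irs4 had 1. The files list Igf1, Socs2 and Socs3 only under older names (IGF-I, Cish2 and Cish3), so their probes are described apart from the members, and 8 genes were reached by neither route: Igfals, Igfbp1, Igfbp6, Igfbp7, Insr, Irs2, Socs1 and Cish. No probe for the insulin receptor itself was thus identified here.

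Livers came from male FVB mice aged 6 weeks that had either been fed or gone without chow for 12, 24 or 72 h, with water available and all animals killed at the same hour of the morning. An infrared lamp warmed the mice once 24 h had passed. Each group had 3 two-colour arrays, and each array carried Cy3-labelled RNA pooled from 2 livers. The Cy5-labelled reference on every array was a pool of 6 fed livers, the same 6 by their labels as on the fed arrays. Dyes were not exchanged. Values are log2 ratios of sample over this reference, so that 0 means equal signal, and errors are SDs between pools, not between mice.

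Insulin and the insulin-like growth factors act through tyrosine kinase receptors that pass the signal on by way of insulin receptor substrate (IRS) proteins. In liver, growth hormone acts on its receptor Ghr to sustain production of circulating IGF-I, while IGF-binding proteins carry the growth factors and limit their access to receptors. SOCS proteins, made in response to cytokines and growth hormone, damp the growth hormone receptor's signal.

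Both low-signal arrays have to be named before the results. Replicate 2 of the 12 h group and replicate 3 of the 24 h group had a median signal of 4.72 and 3.50 times the local background, against 5.34 to 10.6 on the other arrays, and limma's array weights gave them 0.037 and 0.099, against at least 0.54 elsewhere. The images of these arrays and of fed replicate 1 were quantified on the same day, 1 of 3, which no other array shared. The remaining fed arrays shared a day with the 72 h arrays, and the remaining 12 h and 24 h arrays shared another. A comparison of 12 h or 24 h with fed inside 1 day therefore rests on a low-signal array against fed replicate 1. The scanner software marked 24.7% of probes on fed replicate 2 and 14.1% on fed replicate 3 as outliers, which left 6 of the 14 member probes with fewer than 3 fed values.

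**Figure D1:**
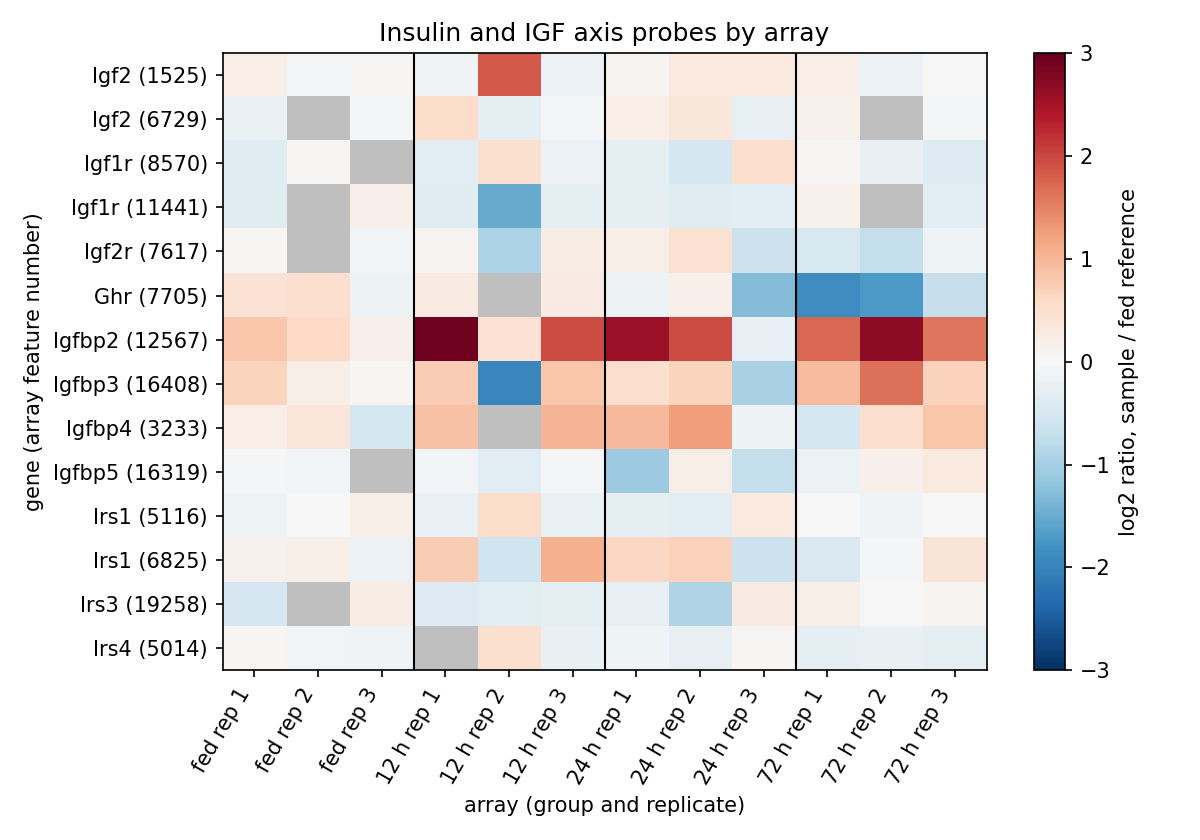
Log2 ratio of sample over fed reference (colour) for the 14 member probes (rows, with the array's feature number) on the 12 arrays (columns, by group and replicate). Grey cells are spots marked as outliers. Igfbp2 reached 1.60 or more on 7 of the 9 fasted arrays. Among spots with a value, Ghr was lowest on the 3 arrays at 72 h and on the low-signal array at 24 h.

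The regions before the starts of 3 genes are shown, since Igfbp2 and Ghr differed most from fed and Irs1 was the member with repeated matches to an insulin response element. They are RefSeq sequences of GRCm38.p6, 250 bases up to each annotated start, and CAAAACA, the core of the insulin response element, is in capitals wherever it occurs on either strand (TGTTTTG when it lies on the other strand).
Igfbp2, outer start, chr1:72824230-72824479, plus strand: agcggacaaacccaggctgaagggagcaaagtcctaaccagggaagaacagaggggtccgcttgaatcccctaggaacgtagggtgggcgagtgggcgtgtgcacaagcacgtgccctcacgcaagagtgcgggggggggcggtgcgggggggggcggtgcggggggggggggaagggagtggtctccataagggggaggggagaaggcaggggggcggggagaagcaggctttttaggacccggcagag
Igfbp2, inner start, chr1:72825137-72825386, plus strand: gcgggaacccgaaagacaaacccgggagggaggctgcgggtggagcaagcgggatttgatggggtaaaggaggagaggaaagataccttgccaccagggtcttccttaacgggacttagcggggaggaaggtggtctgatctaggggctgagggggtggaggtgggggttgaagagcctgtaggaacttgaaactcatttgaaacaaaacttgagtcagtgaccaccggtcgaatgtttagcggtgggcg
Ghr, outer start, chr15:3583353-3583602, minus strand: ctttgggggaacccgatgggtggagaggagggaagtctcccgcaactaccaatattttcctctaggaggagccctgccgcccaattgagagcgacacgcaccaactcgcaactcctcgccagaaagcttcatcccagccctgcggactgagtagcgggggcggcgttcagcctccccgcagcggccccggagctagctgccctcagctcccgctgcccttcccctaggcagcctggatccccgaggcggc
Ghr, inner start, chr15:3581843-3582092, minus strand: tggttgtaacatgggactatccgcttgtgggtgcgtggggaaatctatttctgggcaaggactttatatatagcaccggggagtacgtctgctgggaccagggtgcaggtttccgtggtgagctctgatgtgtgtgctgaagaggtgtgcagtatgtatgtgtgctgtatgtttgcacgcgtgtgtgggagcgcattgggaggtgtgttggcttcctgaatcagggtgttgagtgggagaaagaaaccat
Irs1, chr1:82291440-82291689, minus strand: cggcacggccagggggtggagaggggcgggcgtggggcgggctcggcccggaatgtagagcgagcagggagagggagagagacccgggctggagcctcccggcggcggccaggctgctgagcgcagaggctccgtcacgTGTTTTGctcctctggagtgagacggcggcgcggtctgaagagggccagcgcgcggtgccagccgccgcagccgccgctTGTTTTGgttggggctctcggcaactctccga
CAAAACA occurred in 2 of 16 windows before the starts of the 11 member genes, those of Irs1 and Irs4, against 5.56% of 32851 windows of that length in the whole table. The forkhead motif GTAAACA, which 3.17% of all windows held, and TTCNNNGAA, the palindrome that STAT proteins bind and that 7.02% held, were not found in any member window. Of the genes described apart from the members, Socs3 had TTCNNNGAA 154 bases before its start, and the window of Igf1 held none of the motifs. Only CAAAACA occurred in the member windows, so different motifs could not overlap there. The Igfbp2 windows were 67.2% and 56.4% G or C and held 14 and 11 CpG, against medians of 52.4% and 6 over all windows. The letters say nothing here about binding of any factor.

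With all 12 arrays, limma called 0 of the 13 member probes tested at 12, 24 or 72 h of fasting (adjusted p under 0.05 over all probes and at least 1.4-fold). That rule called 0.00995%, 0.00497% and 0.00996% of all probes tested at the 3 times. The smallest adjusted p of a member was 0.957, 1.00 and 1.00. At an unadjusted p under 0.01 with 1.4-fold, 0, 0 and 1 members passed, against 0.671%, 0.651% and 0.433% of all probes, and the member was Ghr at 72 h. At an unadjusted p under 0.05 with no fold limit, it was likewise 0, 0 and 1, against 3.89%, 3.07% and 1.56%. The median log2 fold change over the 13 was 0.04, 0.01 and -0.0043, close to the medians over all probes of -0.0060, -0.0023 and -0.01. Irrespective of p, 3 of the 13 differed from fed by 1.4-fold at each time, against 15.1%, 8.06% and 6.73% of all probes.

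Leaving out both low-signal arrays, limma called 1 member at each time, against 2.84%, 9.44% and 0.846% of all probes. The members were Igfbp2, higher at 12 and 24 h, and Ghr, lower at 72 h, and 1 of 13 at 24 h lies near the share of all probes. In that fit no 12 h or 24 h array shared a quantification day with a fed array. Day and fasting at 12 and 24 h thus cannot be told apart there. With array weights in place of leaving arrays out, 2, 2 and 3 members were called, against 10.8%, 11.9% and 4.43%. With quantification day as a block, 4, 1 and 0 were called, against 23%, 11.6% and 0.0199%. Irs4 was not tested, because its signal was well above background on at most 2 arrays of any group.

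**Figure D2:**
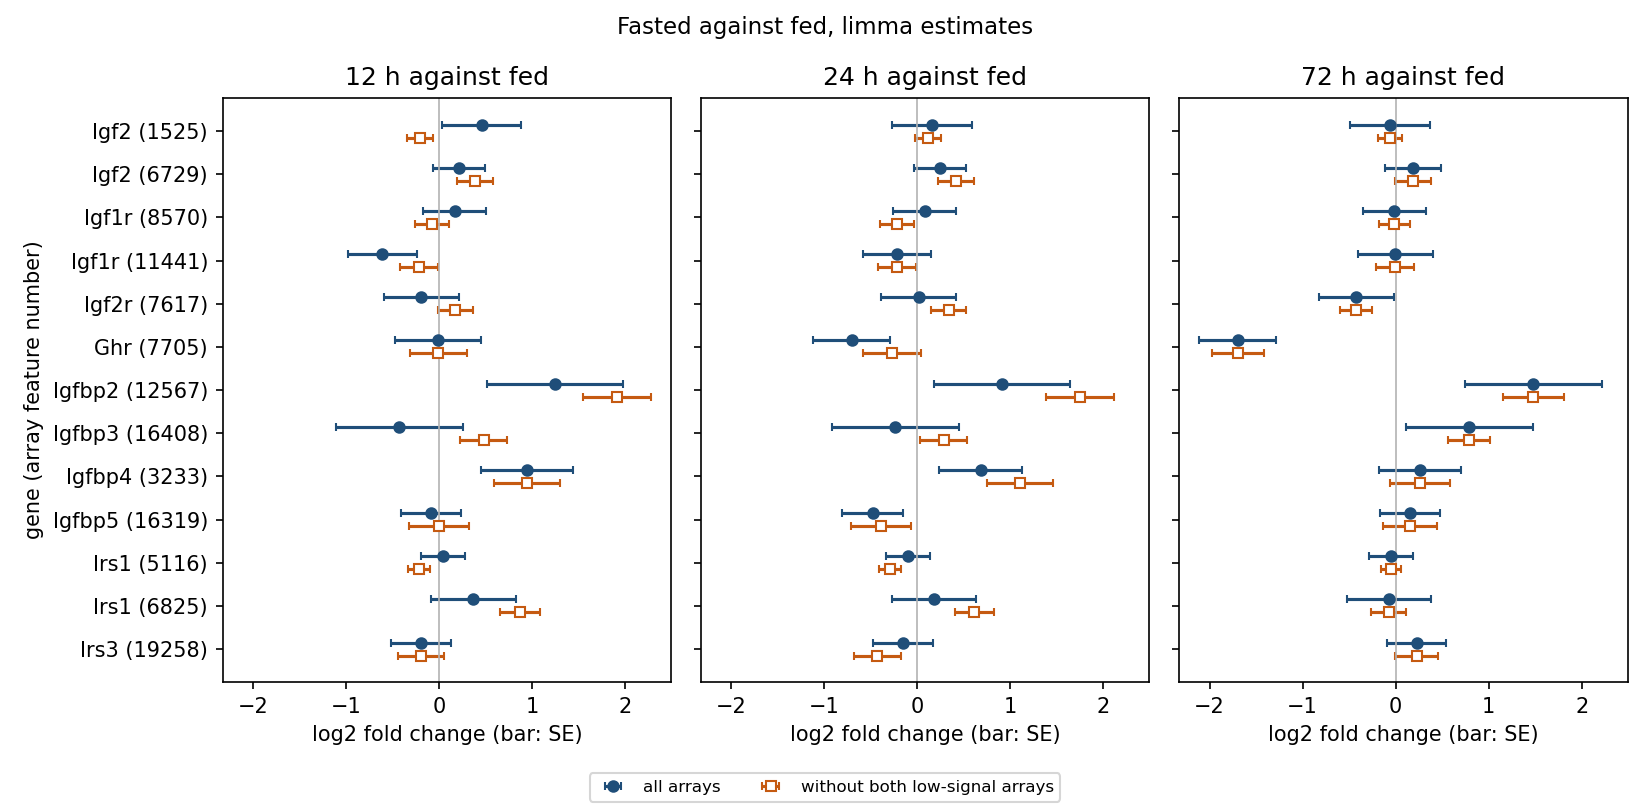
Log2 fold change against fed (x axis) with its standard error for the 13 member probes tested (y axis, with feature number), from all 12 arrays (filled circles) and without both low-signal arrays (open squares). The estimates for Igfbp2 at 12 and 24 h moved from 1.24 to 1.91 and from 0.91 to 1.75. The low-signal arrays do not enter the 72 h estimates, and that for Ghr is -1.70 in both fits.

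Ghr, the growth hormone receptor of hepatocytes, had the lowest log2 fold change of any member at 72 h. The gene lies on chromosome 15, from 3317755 to 3583352 in GRCm38.p6. Its log2 ratios were 0.44, 0.51 and -0.15 on the fed arrays, 0.26 on both usable arrays at 12 h, -0.15, 0.14 and -1.31 at 24 h, and -1.87, -1.72 and -0.70 at 72 h. All 72 h arrays lay below all fed arrays, and the low value at 24 h came from the low-signal array. The outlier-marked spot on the low-signal array at 12 h had log2 signals of 7.87 in the sample and 10.82 in the reference. The mean was 0.27 ± 0.36 (SD, n = 3) in fed liver and -1.43 ± 0.64 (SD, n = 3) at 72 h. The log2 fold change at 72 h was -1.70 (SE 0.41, 95% interval -2.62 to -0.78), a 3.24-fold lower ratio, with an unadjusted p in limma of 0.0022 and an adjusted p of 1.00.

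Neither low-signal array is a fed or 72 h array, so leaving them out cannot move the Ghr estimate of -1.70 at 72 h. Its SE fell from 0.41 to 0.28, with an adjusted p in limma of 0.0253. At 12 h the log2 fold change was -0.0093 (95% interval -1.04 to 1.02). At 24 h it was -0.71, or -0.28 without the low-signal arrays, and neither passed. With day as a block these were -1.48 and -1.75 (adjusted p in limma 0.129 and 0.0658), and the 12 h value was -1.08 with the outlier-marked spot kept. Between times, the Ghr log2 difference of 72 h from 24 h was -0.99 (adjusted p in limma 1.00) and from 12 h -1.69 (adjusted p 0.727), and without the low-signal arrays these were -1.42 (adjusted p 0.0526) and -1.69 (adjusted p 0.0769). Both steps were called with array weights (adjusted p in limma of 0.0269 and 0.0152). Within the quantification day that holds the 72 h arrays and 2 fed arrays the difference at 72 h was -1.61 (adjusted p in limma 0.230). Under the 12 planned settings the value at 72 h ran from -2.26 to -1.53, though some of them leave these group means unchanged. Leaving out each of the 12 arrays in turn gave -2.06 to -1.48. Its sign could not change there, since the 72 h and fed values did not overlap.

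Hepatocyte markers gave unlike values. Of 10 hepatocyte markers 2 had a probe, Apoa1 and Ttr, both well above background on all 12 arrays. Their summed signal ranged from 118860 to 121920 on the fed arrays, 92802 to 109960 at 12 h, 94521 to 101830 at 24 h and 78535 to 106920 at 72 h. Every fasted array was thus below every fed array by this sum. Ttr, transthyretin, had log2 fold changes of -0.48, -0.66 and -1.21 at 12, 24 and 72 h, and Apoa1, the main apolipoprotein of high-density lipoprotein, 0.36, -0.14 and 0.14 (adjusted p in limma of 0.957 or more). Ttr lay below fed without overlap at each time, and Apoa1 overlapped with fed at each time. The unadjusted p in limma of Ttr at 72 h was 0.0021, beside 0.0022 for Ghr. By the mean log2 ratio of both probes, 1 array at 12 h (0.48) lay above the fed arrays (0.15 to 0.27). Their part in the Ghr difference was not tested. In RNA of whole liver, fewer cells of a type and less RNA per cell cannot be told apart.

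Igfbp2, an IGF-binding protein that the liver secretes, had the highest log2 fold change of any member at each time. It lies on chromosome 1, from 72824480 to 72852474, and Igfbp5 follows after 5590 bases. Its log2 ratios were 0.84, 0.59 and 0.14 on the fed arrays, 2.91, 0.43 and 1.96 at 12 h, 2.59, 1.96 and -0.24 at 24 h, and 1.73, 2.68 and 1.60 at 72 h. Of the 9 fasted arrays, 7 lay above every fed array, and those that did not were the low-signal arrays. Fed liver averaged 0.52 ± 0.35 (SD, n = 3), above the 0 of equal signal although sample and reference held the same livers. At 72 h the mean was 2.00 ± 0.59 (SD, n = 3).

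The log2 fold changes of Igfbp2 with all arrays were 1.24, 0.91 and 1.48 at 12, 24 and 72 h (SE 0.73 each), that is 2.37-, 1.88- and 2.79-fold, and none passed. The 95% intervals were -0.37 to 2.86 at 12 h, -0.70 to 2.53 at 24 h and -0.13 to 3.10 at 72 h. Without the low-signal arrays they were 1.91, 1.75 and 1.48, with adjusted p in limma of 0.0277, 0.0197 and 0.0668. Array weights gave 1.97, 1.90 and 1.61, with adjusted p of 0.0024, 0.0025 and 0.0105. The 3 times did not differ from each other by an amount that passed (log2 differences of -0.33 for 24 against 12 h and 0.57 for 72 against 24 h, with adjusted p in limma of 0.997 and 1.00).

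With quantification day as a block, the Igfbp2 estimates at the early times had the opposite sign, -0.57 at 12 h and -0.91 at 24 h (adjusted p in limma 0.457 and 0.280), and the single same-day pairs, each a low-signal array minus fed replicate 1, gave -0.40 and -1.08. At 72 h the same-day difference was 1.64 (adjusted p 0.196). The day and the low signal of these arrays cannot be told apart. Without these arrays, the day and fasting at 12 h and 24 h cannot be told apart either.

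**Figure D3:**
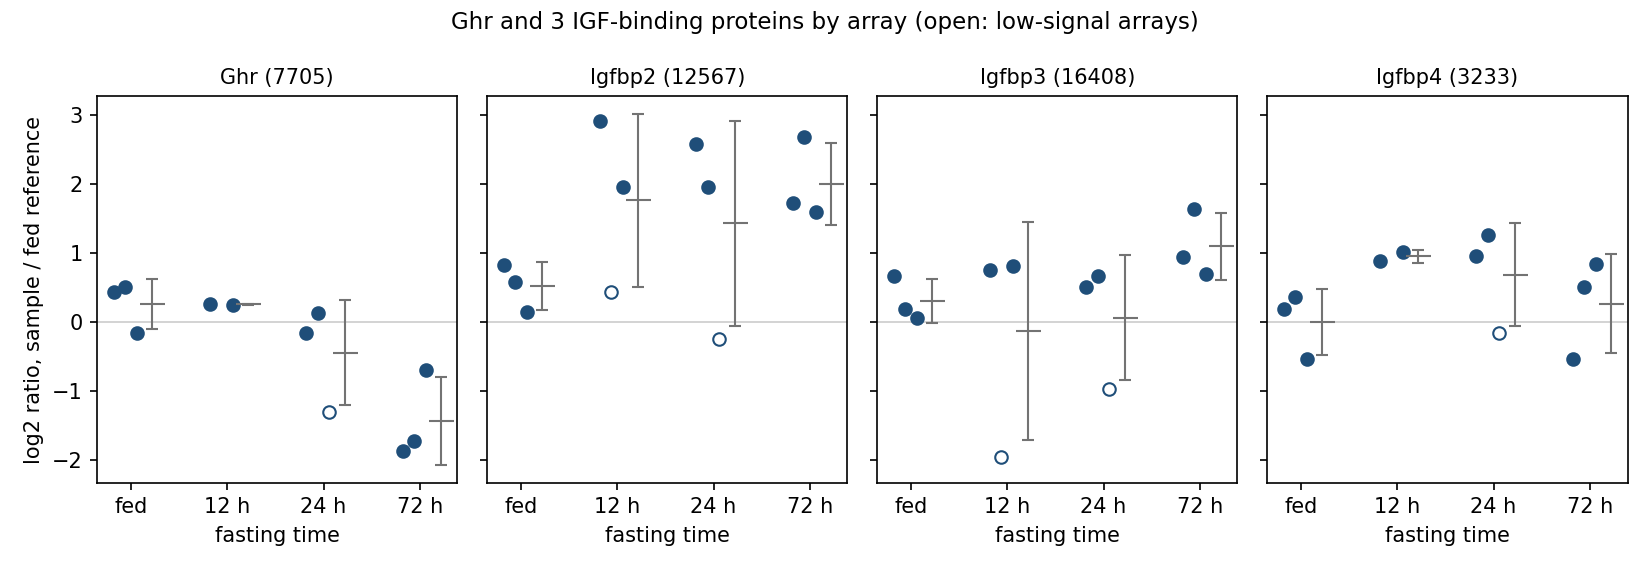
Log2 ratio of sample over fed reference (y axis) by fasting time (x axis) for Ghr, Igfbp2, Igfbp3 and Igfbp4, with 1 point per array, open for the low-signal arrays, and group mean with SD at the right of each group. At 72 h, Ghr lay below and Igfbp2 and Igfbp3 lay above the fed arrays without overlap.

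Igfbp3, which carries most IGF-I in the circulation and in liver is made mainly outside hepatocytes, lay above fed without overlap at 72 h. It is on chromosome 11, from 7206086 to 7215498. The log2 ratios were 0.67, 0.19 and 0.07 in fed liver, 0.75, -1.95 and 0.82 at 12 h, 0.51, 0.67 and -0.97 at 24 h, and 0.95, 1.65 and 0.70 at 72 h. The lowest 72 h array exceeded the highest fed array by little, and the low-signal arrays gave the only negative values. The log2 fold change at 72 h was 0.79 (95% interval -0.71 to 2.30, adjusted p in limma 1.00), without the low-signal arrays 0.79 with an adjusted p of 0.136, and with array weights 1.00 with an adjusted p of 0.0158. At 12 and 24 h it was -0.43 and -0.24 with all arrays, 0.48 and 0.28 without the low-signal arrays, and -2.22 and -2.03 with day as a block (adjusted p in limma 0.0122 and 0.0242), where the day is carried by the low-signal arrays.

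For non-overlap, 7 of the tested member probes had 3 values in both groups at 72 h, and 3 of these did not overlap, Ghr lower and Igfbp2 and Igfbp3 higher, against 18.9% of all probes tested. Irs4, which was not tested, also lay lower without overlap. At 12 and 24 h it was 0 of 5 and 0 of 7, against 12.7% and 11.5%. Among markers of other cells, Vim (-0.52), Acta2 (-0.40) and both Lyz2 probes (-0.38 and -0.84) had negative and Dcn (0.58) a positive log2 fold change at 72 h, each without overlap and with an adjusted p in limma of 1.00. The mean log2 ratio of the leukocyte probes was 0.05 to 0.23 in fed liver and -0.25 to -0.12 at 72 h. Summed signals of the stellate cell, leukocyte and endothelial lists overlapped. The summed signal of 6 stellate cell and fibroblast genes was 10044 to 10771 in fed liver and 10032 to 11398 at 72 h, that of 4 macrophage and leukocyte genes 6007 to 8898 and 7103 to 8094, and that of Kdr, the 1 endothelial gene with a probe, 424 to 840 and 377 to 439. On the low-signal array at 12 h Kdr was at 129, where Igfbp3 was also lowest. The 3 bile duct genes with a probe did separate, at 1643 to 2063 in fed liver and 1416 to 1575 at 72 h, and among them Spp1 had a log2 fold change of -0.63 (unadjusted p in limma 0.0045, adjusted p 1.00). The 2 erythroid genes gave 9062 to 26590 and 18072 to 22106, and Cpa1 of the pancreas 446 to 770 and 650 to 697. The part of these cells in the values of Ghr, Igfbp2 and Igfbp3 was not tested.

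Igfbp4, a binding protein that is abundant in liver and restrains IGF action, was higher on the early arrays of normal signal. It lies on chromosome 11, from 99040005 to 99052655. Its log2 ratios were 0.19, 0.37 and -0.53 in fed liver, 0.89 and 1.02 on the usable 12 h arrays, 0.97, 1.26 and -0.16 at 24 h, and -0.54, 0.51 and 0.84 at 72 h. The early arrays other than the low-signal array all lay above fed, whereas the 72 h arrays overlapped with fed. The log2 fold changes were 0.94, 0.68 and 0.26, and none passed with all arrays. Without the low-signal arrays they were 0.94, 1.10 and 0.26, with adjusted p in limma of 0.155, 0.0721 and 0.808. With day as a block they were -0.50, -0.35 and 0.35.

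Igfbp5, the neighbour of Igfbp2 and a product of stromal cells, overlapped with fed at each time. Its log2 ratios were -0.03 and -0.09 on the usable fed arrays, between -0.33 and -0.04 at 12 h, -1.09, 0.17 and -0.71 at 24 h, and between -0.16 and 0.28 at 72 h. The log2 fold changes were -0.09, -0.48 and 0.15, and with array weights -0.81 at 24 h (adjusted p in limma 0.0108) and the difference of 72 h from 24 h, 1.04 (adjusted p 0.0121), passed. Without the low-signal arrays these were -0.40 (adjusted p in limma 0.432) and 0.55 (adjusted p 0.288). With the sample channel alone the 24 h value was 0.07. On 24 h replicate 1, which read -1.09, the log2 reference signal was 10.79, against 8.74 to 9.23 on the other arrays. The log2 sample signal there, 9.70, was the highest of the 12 arrays.

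Among ligands and their receptors, Igf2, a growth factor expressed mainly before birth, was read by 2 probes. Feature 1525 lay between -0.18 and 0.30 on all arrays except the low-signal array at 12 h, which read 1.84, while feature 6729 lay between -0.26 and 0.54. Neither probe passed at any time or setting. The log2 fold changes at 72 h were -0.06 (95% interval -1.01 to 0.88) and 0.19.

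Igf1r, the IGF-I receptor, is scarce in adult hepatocytes. Its probes, features 8570 and 11441, differed in brightness, with group means of the log2 sample signal of 10.3 to 10.8 and 7.26 to 8.01. Which of them reads the Igf1r transcript was not tested. They had log2 fold changes of 0.17 and -0.61 at 12 h, 0.08 and -0.22 at 24 h, and -0.01 and -0.0043 at 72 h. The low-signal array at 12 h read 0.48 on the first and -1.50 on the second, the widest disagreement between both probes. Without the low-signal arrays the 12 h estimates were -0.08 and -0.22, and with day as a block 0.91 (adjusted p in limma 0.0286) and -0.75 (adjusted p 0.201). Igf2r, which takes up IGF-II and sorts lysosomal enzymes, had log2 fold changes of -0.19, 0.01 and -0.42, the last with an adjusted p in limma of 1.00, or 0.327 without the low-signal arrays. With day as a block it was called at 12 h (-0.94, adjusted p in limma 0.0396).

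Irs1, the substrate that couples insulin and IGF receptors to phosphoinositide 3-kinase, was read by features 5116 and 6825, which disagreed on the early arrays. Feature 6825 read 0.76, -0.59 and 1.06 at 12 h and 0.63, 0.69 and -0.64 at 24 h, against -0.18 to 0.17 in fed liver. Feature 5116 read -0.20, 0.55 and -0.21 at 12 h and -0.26, -0.31 and 0.30 at 24 h, against -0.14 to 0.17 in fed liver. On the low-signal arrays each probe thus stood on the opposite side of its other early arrays. Without those arrays the log2 fold changes were 0.87 and -0.21 at 12 h, with adjusted p in limma of 0.0552 and 0.314. Array weights called feature 6825 at 12 h (0.77, adjusted p 0.0097), and the day block called feature 5116 (0.63, adjusted p in limma 0.0333) with feature 6825 at -0.66 (adjusted p 0.160). At 72 h the changes were -0.07 for feature 6825 and -0.05 for feature 5116.

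Irs3, a rodent substrate known mainly from fat cells, had log2 fold changes of -0.19, -0.16 and 0.23, with a 95% interval at 72 h of -0.49 to 0.94. Irs4 read between -0.30 and 0.49 on the arrays with a value, near background throughout, and is given as a description.

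Igf1 could be followed through the probe listed as IGF-I, feature 9041. Its log2 ratios were 0.38, 0.42 and -0.14 in fed liver, 1.32, -0.83 and 1.04 at 12 h, 0.96, 1.04 and -0.95 at 24 h, and -0.27, 0.47 and 0.55 at 72 h. The early arrays of normal signal were all higher than fed and the low-signal arrays lower than fed. With all arrays the log2 fold changes were 0.29, 0.13 and 0.03, with 95% intervals of -1.06 to 1.65, -1.22 to 1.48 and -1.32 to 1.38. Without the low-signal arrays they were 0.96, 0.78 and 0.03, with adjusted p in limma of 0.0598, 0.0639 and 0.979. With day as a block they were -1.19 and -1.35 at 12 and 24 h (adjusted p in limma 0.0434 for both), where the day is carried by the low-signal arrays. With array weights the value was 0.87 at 12 h (adjusted p in limma 0.0128). The direction at these times thus depends on whether the day is in the fit. At 72 h Ghr was lower without overlap while Igf1 overlapped with fed.

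**Figure D4:**
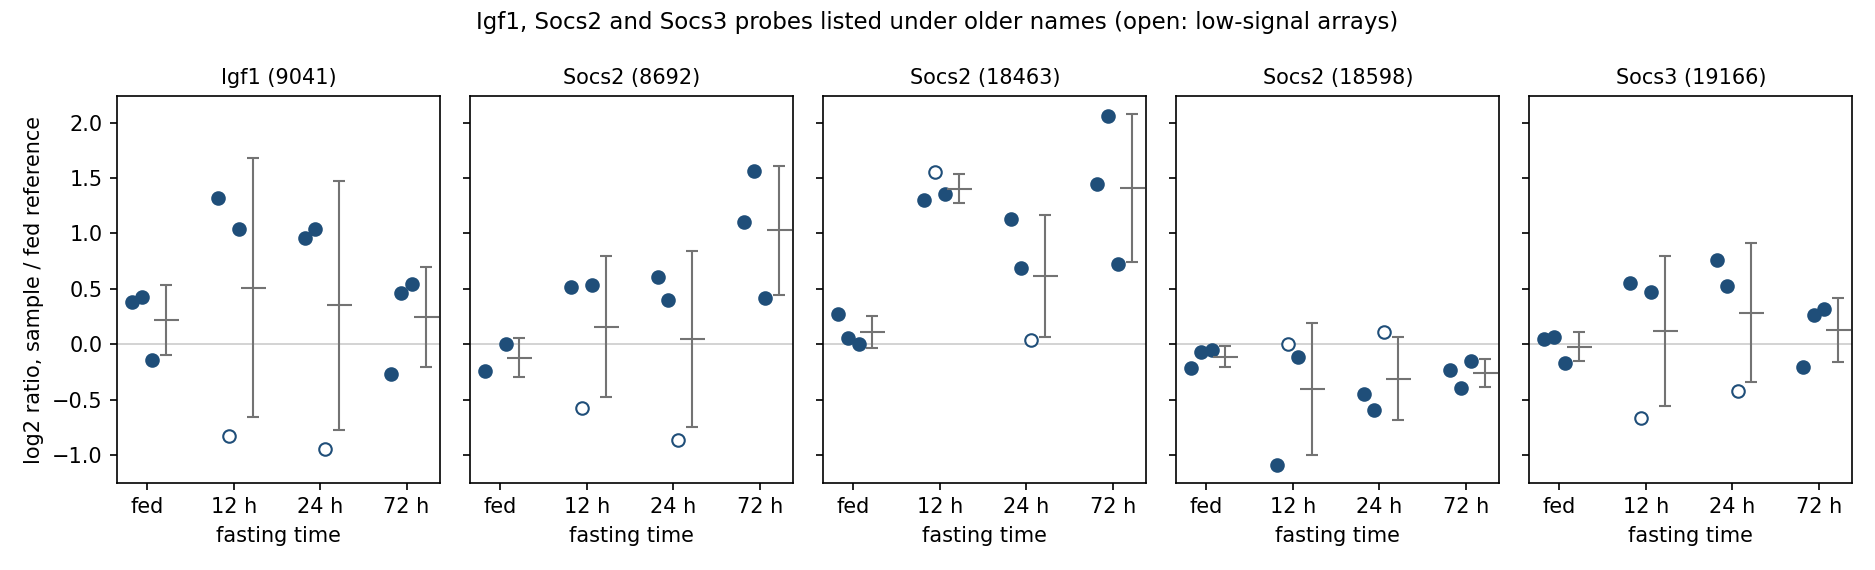
Log2 ratio of sample over fed reference (y axis) by fasting time (x axis) for the Igf1, Socs2 and Socs3 probes that the files list under older names, with 1 point per array, open for the low-signal arrays, and group mean with SD at the right of each group. Feature 18463 of Socs2 reached 1.30 to 1.55 at 12 h, while feature 18598 of the same gene lay at or below 0 there.

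Socs2, the suppressor most tied to growth hormone signalling, had 3 probes under the name Cish2. Feature 18463 read 0.27, 0.05 and 0.0024 in fed liver, 1.30, 1.55 and 1.36 at 12 h, 1.13, 0.69 and 0.04 at 24 h, and 1.45, 2.06 and 0.72 at 72 h. All arrays at 12 and 72 h lay above fed, the low-signal array at 12 h included. The log2 fold changes were 1.29, 0.51 and 1.30 (SE 0.34), with adjusted p in limma of 0.957, 1.00 and 1.00, and array weights called it at each time. The unadjusted p in limma was 0.0027 at 12 h and 0.0026 at 72 h. At those times 0.671% and 0.433% of all probes had an unadjusted p under 0.01 with 1.4-fold. Feature 8692 gave 0.28, 0.17 and 1.15, and feature 18598 gave -0.29, -0.20 and -0.15. The 3 probes thus differed in direction, and which of them reads the Socs2 transcript was not tested. Feature 18598 was the dimmest of them, well above background on only 2 of 3 arrays at 12 h and at 24 h. Socs3, which cytokines induce in liver, gave 0.14, 0.31 and 0.15 with all arrays and 0.66 at 24 h without the low-signal arrays (adjusted p in limma 0.0332), but -0.67 at 12 h and -0.51 at 24 h with day as a block (adjusted p 0.0821 and 0.205). A further Igf1r probe, listed as A330103N21Rik, gave 0.07, -0.0076 and 0.07.

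Genes around the axis were taken from 5 lists. Growth hormone receptor and JAK-STAT signalling had probes for 15 of 17 genes (24 probes tested), insulin receptor signalling for 25 of 29 (37 probes), insulin-regulated liver genes for 7 of 15 (8 probes), further ligands and accessory proteins for 7 of 22 (10 probes) and growth hormone-regulated liver genes for 5 of 20 (6 probes). None of these probes was called by limma at any time. At an unadjusted p under 0.01 with 1.4-fold the count was 1, Insig2, which retains SREBP in the endoplasmic reticulum, with a log2 fold change of 2.26 at 12 h (adjusted p in limma 0.957), 1.68 at 24 h and 2.02 at 72 h. At an unadjusted p under 0.05, 5 of these 85 probes were higher and 3 lower at 12 h, 3 and 0 at 24 h, and 4 and 5 at 72 h. The shares of all probes, both directions together, were 3.89%, 3.07% and 1.56%. Under 0.01 with 1.4-fold these shares were 0.671%, 0.651% and 0.433%. The medians at 72 h were -0.11, 0.02, 0.14, 0.08 and -0.43 in the order of the lists, beside -0.01 for all probes.

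The named probes most like Ghr over the 11 arrays with a Ghr value were Keg1 (r = 0.969), 1110004C05Rik, now Ifitm3 (r = 0.949), and Dbi (r = 0.946), out of 4876 candidates. Without the low-signal arrays, Keg1 (r = 0.971) and Dbi (r = 0.960) came next after Nrp (r = 0.992). For Igfbp2 over 12 arrays the nearest were TOB3, now Atad3a (r = 0.975), Ecgf1, now Tymp (r = 0.964), and Slc25a15 (r = 0.963), and Atad3a stayed among the first 3 without the low-signal arrays (r = 0.963). For Igf1 the first 3 over all arrays and those over the other 10 arrays had no probe in common. These correlations are descriptions over arrays that share a reference and, in places, low signal.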

How the data were processed

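RNA of fed and fasted mouse liver was measured on 12 two-colour arrays, grouped by their titles and source names. The authors deposited unnormalized intensities, the median brightness of spots and of local background that Agilent Feature Extraction 6.1.1 read from each channel, and log10 ratios that this program had corrected for background and dye. The authors worked on quantile-normalized background-subtracted signals with a Split-Factor ANOVA, which was not run here. The genome build of the probes is not given in the sources used here.

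Of 21446 spots, 1075 control and 91 retired spots were left out. Signals were background-corrected over all spots (normexp, offset 50), quantile-normalized over 24 channels and expressed as log2 of sample (Cy3) over reference (Cy5). Spots marked as outliers were set to missing. Tested were probes with a value in both groups whose Cy3 signal the scanner software called well above background on every array of 1 or more groups, which Irs4 was not. Differences were tested with limma 3.58.1 in R 4.3.3 (lmFit and eBayes, 4 group means, Benjamini-Hochberg over all probes tested), and intervals are 95% intervals of that fit. Summed marker signals are sums of the normalized sample signals. Precision is limited by 3 pools per group. On simulated data with 200 changed probes, the fit was checked for the estimated fold changes. The share of these changed probes that the fit called is not given here.

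Older names were matched to current symbols through RefSeq, and the files name a gene for 9287 spots other than controls, of which 4326 matched by symbol, 4172 by synonym and 6 by accession. Sequences and positions are from RefSeq, GRCm38.p6, and where in its transcript a probe lies is not known here. Every member is named, and of the pathway lists the genes with an unadjusted p under 0.01 and 1.4-fold. The members, lists, tests and alternatives were chosen with earlier results of these data known.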

Additional observations from a re-analysis of the deposited data

How the results depend on the processing

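With 3 pools per group and fold changes as noisy as these, a p that misses the threshold does not show that a gene was stable. Of 682 alternative values of single probes, 559 kept their direction and their side of the threshold, 23 kept their direction and passed the threshold, 98 without a call changed sign, and 2 reversed: Igf1, feature 9041, with quantification day as a block, at -1.19 for 12 h and -1.35 for 24 h. Leaving out each array in turn, 631 of 684 values kept direction and side, and the other 53 changed sign without a call. Arrays of groups outside a comparison cannot move its estimate in this fit, so many of the 684 values could not change sign. Likewise, some of the 682 alternative values, such as those with no filter on dim probes, could not change sign.

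The number of members called, 0 in each comparison with all arrays, became 2, 2 and 3 at 12, 24 and 72 h with array weights, 1 at each time without both low-signal arrays, and 4 at 12 h and 1 at 24 h with the day as a block, where the calls over all probes were 23% and 11.6%. For 72 against 24 h it became 3 with array weights and 2 with the day block (4.77% and 9.99% of all probes), and for 72 against 12 h 2 and 4 (1.96% and 18%). At an unadjusted p under 0.01 with 1.4-fold, the counts of 0, 0 and 1 became 2, 2 and 3 with array weights (10.8%, 11.8% and 6.01% of all probes), 4, 2 and 2 with the day block (21.6%, 15.6% and 1.96%), and 2, 1 and 3 without both low-signal arrays (7.76%, 11.8% and 4.35%). At 72 h this count was 0 with outlier-marked spots kept, 3 with only the groups compared in the fit and 3 within the quantification day (0.423%, 4.07% and 3.38% of all probes in this order), and leaving out 1 array gave 0 to 1, with 0 without 72 h replicate 1 or replicate 2. At 24 h leaving out 1 array gave 0 to 1, with 1 without 24 h replicate 2.

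The median log2 fold change of members became -0.50 at 12 h and -0.37 at 24 h with the day block, -0.30 and -0.35 within the day, where 1 low-signal array meets 1 fed array, and 0.20 at 72 h with the sample channel alone. Leaving out 1 array at 72 h gave -0.074 to 0.12, the latter without fed replicate 2.

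Replicate numbers only name pools. Same-numbered arrays deviated together with correlations from -0.59 to 0.58, and the fit with a replicate block called 0 members in each comparison and moved no median by more than the spread, to 0.08 at 12 h and 0.04 at 24 h. The causes of these shifts were not tested.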
